A study of Homo sapiens with 3 samples.

Results

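The 58 genes described here encode collagen chains and the proteins that modify, chaperone and cross-link them, out of 35880 gene symbols measured in HEK293T cells. Collagen genes were taken by symbol (COL, a number, A and a single digit), which gave 44 genes. The other 14 were taken by name: the catalytic subunits of prolyl 4-hydroxylase (P4HA1 to P4HA3), the lysyl hydroxylases (PLOD1 to PLOD3), the galactosyltransferases COLGALT1 and COLGALT2, the chaperone SERPINH1, and the lysyl oxidases LOX and LOXL1 to LOXL4. All 3 libraries belonged to 1 group, untreated HEK293T cells grown in high-glucose DMEM with 10% FBS and harvested when 70% confluent, and they are labelled as biological replicates 1 to 3. HEK293T descends from embryonic kidney cells transformed with adenovirus DNA and later given SV40 large T antigen, so it is a transformed culture on plastic and no model of a connective tissue. No treatment, genotype or time point was compared, so each gene's level was set against 1 TPM (a transcript abundance normalised for length and scaled to the same total in each library) and genes were set against each other within libraries. The labels do not name the culture or passage behind each replicate, and the p-values below cover no variation beyond that among these 3 libraries, which may in part be technical.

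Collagens are secreted or membrane proteins whose chains wind into a triple helix built on the repeat Gly-X-Y. Inside the endoplasmic reticulum prolines and lysines of the chains are hydroxylated, some hydroxylysines receive sugars, and SERPINH1 (HSP47) holds the folded helix until it leaves. Outside the cell, propeptides are cut off and lysyl oxidases start the cross-links. Fibril-forming collagens make the ropes of bone, skin and cartilage, type IV chains make the sheet of basement membranes, type VI makes beaded filaments, and the fibril-associated, transmembrane and multiplexin collagens carry interrupted helices.

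Among the 33 genes of at least 1 TPM the median coefficient of variation over the 3 libraries was 6.64%. It was 4.54% for the 13475 genes of the whole table at that level, so these genes varied somewhat more. The largest values among the 33 were those of COL9A2 (38.2%) and COL8A1 (28.6%). The deposited table carried estimated counts for a single library, 33184885 in all, and these matched the values of replicate 1. They are quoted below as the depth behind a value, and they show counting precision only for that library. All 8 marker genes listed for the HEK293 line were above 1 TPM, from VIM at 401 ± 8.63 TPM (mean ± SD, n = 3, as for all levels below) down to PAX2 at 1.57 ± 0.0836. Of 8 fibroblast markers 1 was above 1 TPM (LUM, 1.58 ± 0.247), 4 were below and 2 could not be called either way. THY1 was lowest of those seen (0.00415 ± 0.00719) and FAP was listed at 0. Of 8 osteoblast and chondrocyte markers 1 was above (SOX9, 3.50 ± 0.0937), 4 were below and 2 could not be called. SP7 was lowest of those seen (0.00503 ± 0.00871) and IBSP was listed at 0. Of 8 endothelial markers 1 was above (ESAM, 1.41 ± 0.292) and 6 were below. TEK was lowest of those seen (0.0112 ± 0.0112) and CLDN5 was listed at 0. Of the markers tested in these 3 lists, 14.3% of each were above, and 57.1%, 57.1% and 85.7% were below. Over all protein-coding genes tested 70.7% were above and 23.7% below, and over all genes tested 58.5% and 33.9%. In coding transcripts of at least 1000 bases LUM was below 1 TPM (0.524 ± 0.069), which left no fibroblast marker above it, and ESAM and PAX2 were undecided. Since the RNA came from whole cultures, few cells with much of a transcript and many cells with little of it cannot be told apart.

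Collagen transcripts were divided among several assembly classes rather than held by fibrillar chains alone. A gene was called above or below 1 TPM by limma's moderated test of log2(TPM + 0.01) at an adjusted p under 0.05, and undecided otherwise. Of the 58 genes, 31 were above, 18 below, 6 undecided and 3 listed at 0 in every library. Over all 21990 genes tested 58.5% were above and 33.9% below, beside 56.4% and 32.7% of the 55 genes tested here. All 58 genes are annotated as protein-coding, and over the 17225 protein-coding genes tested the shares were 70.7% above and 23.7% below. The adjusted p of the 31 genes above ran from 4.26e-09 (SERPINH1) to 0.00284 (COL14A1) by limma. The 44 collagens split into 19 above, 16 below, 6 undecided and 3 at 0, with a median of 0.933 TPM beside 4.29 TPM for all genes tested and 10.8 TPM for the protein-coding ones. Of the 14 modifying genes 12 were above and 2, P4HA3 and LOXL4, below, with a median of 12.6 TPM. The collagens summed to 266, 253 and 261 TPM in replicates 1, 2 and 3 and the modifying genes to 326, 341 and 331 TPM, so the 14 genes together exceeded the 44 in every library. Collagens held 0.026% ± 0.000618 of all TPM.

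**Figure D1:**
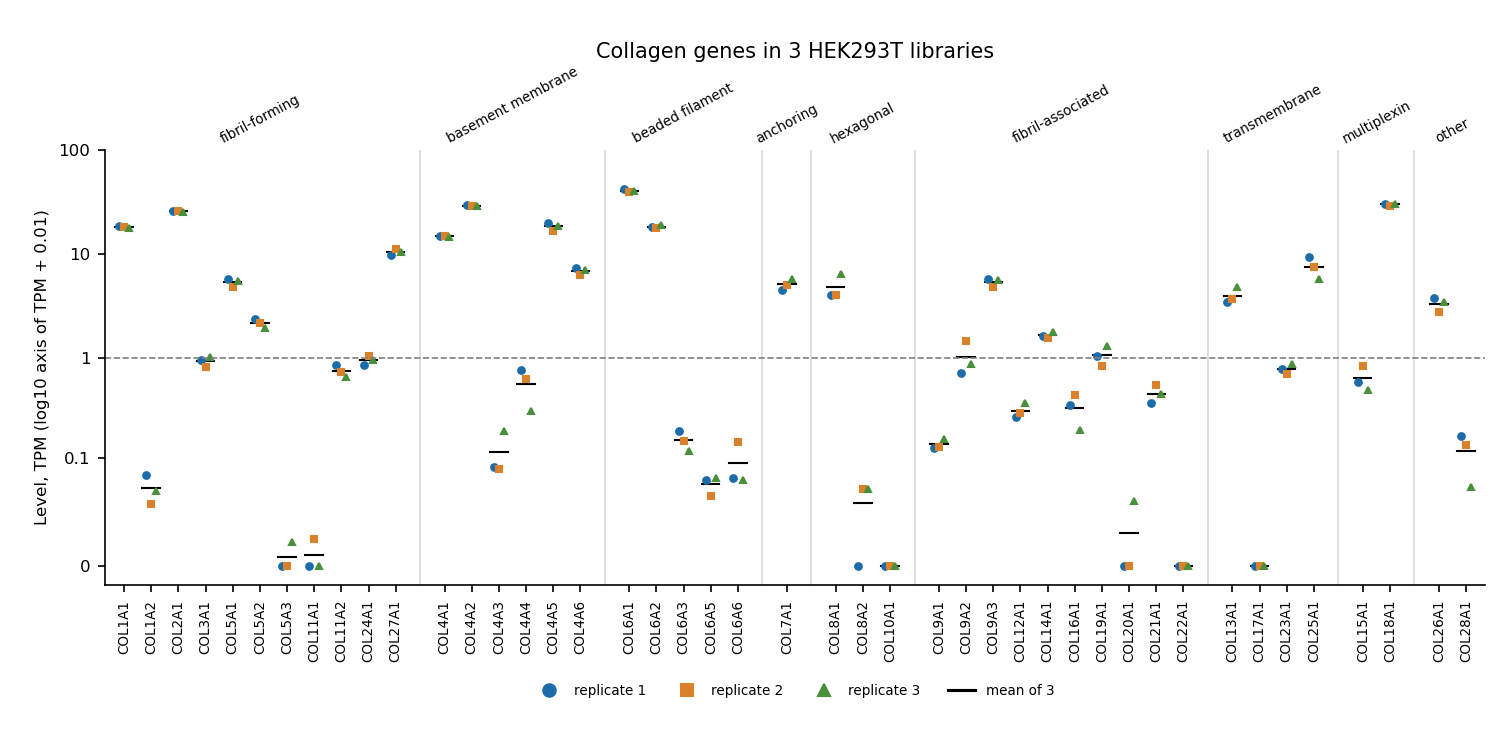
Level of each of the 44 collagen genes in the 3 libraries, grouped by assembly class. The vertical axis is TPM on a log10 axis of TPM + 0.01, points are libraries, black bars are means and the dashed line is 1 TPM. COL6A1, COL18A1, COL4A2 and COL2A1 lie highest, COL1A2 lies far below COL1A1, and COL10A1, COL22A1 and COL17A1 sit at 0 in all libraries.

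Basement membrane chains held the largest share of collagen TPM of any class, 26.9% ± 0.392, followed by fibril-forming chains at 24.7% ± 0.686 and beaded filament chains at 22.8% ± 0.209. The ranges of these 3 shares over libraries, 26.7 to 27.4%, 24.3 to 25.5% and 22.6 to 23%, did not overlap. Multiplexins held 11.8% ± 0.145, transmembrane collagens 4.71% ± 0.384, fibril-associated collagens 3.97% ± 0.111, the anchoring fibril collagen COL7A1 1.96% ± 0.268, hexagonal network collagens 1.86% ± 0.525 and the other collagens 1.32% ± 0.172. The 6 highest genes together held 62.4% ± 0.28. Several collagen genes had most of their TPM in short or non-coding transcripts, as described further below. With only coding transcripts of at least 1000 bases the order of the leading classes changed, to basement membrane 29.8% ± 0.15, beaded filament 27.7% ± 0.144 and fibril-forming 20.5% ± 0.169.

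Among the 6 type IV chains, 4 were above 1 TPM and 2 below, with a median of 10.8 TPM. The genes lie in head-to-head pairs, each pair reading away from a shared stretch of DNA. COL4A1 and COL4A2, whose chains form the common type IV network of nearly all basement membranes, stand on chromosome 13 at chr13:110148963-110307233 (minus strand) and chr13:110305812-110513209 (plus strand). Their RefSeq start sites are separated by 126 bases. COL4A2 was at 29.7, 28.8 and 29.2 TPM and COL4A1 at 15.0, 15.0 and 14.4 TPM, with the COL4A2 values all above those of COL4A1. The ratio of COL4A1 to COL4A2 was 0.504, 0.521 and 0.494, a difference of -0.98 ± 0.04 on the log2(TPM + 0.1) scale. The secreted molecule carries more α1 than α2 chains, but that is a ratio of proteins, and no protein was measured here. Nearly all of both signals came from 1 coding transcript each, 98.3% ± 2.01 of the TPM for COL4A1 and 97% ± 0.846 for COL4A2.

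COL4A3 and COL4A4, chains of the mature glomerular basement membrane, share a stretch of 418 bases on chromosome 2 and both were below 1 TPM. COL4A4 stood at 0.758, 0.616 and 0.297 TPM (adjusted p = 0.0486 by limma) and COL4A3 at 0.0801, 0.0761 and 0.190 TPM. Replicate 3 was the lowest of the libraries for COL4A4 and the highest for COL4A3. The COL4A4 call was lost in each of the fits that left out 1 library, with adjusted p = 0.0717, 0.12 and 0.0885 by limma without replicates 1, 2 and 3. COL4A3 rested on 15.0 estimated counts and COL4A4 on 92.

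COL4A5 and COL4A6, the X-linked pair, were both above 1 TPM. COL4A5, which is mutated in Alport syndrome, stood at 19.9, 16.8 and 18.5 TPM. COL4A6, which pairs with it in the basement membranes of epithelial ducts and smooth muscle, stood at 7.32, 6.25 and 7.07 TPM. The COL4A5 values were all above those of COL4A6, by 1.41 ± 0.03 on the log2(TPM + 0.1) scale. This difference shrank to 0.77 ± 0.08 with coding transcripts of at least 1000 bases, because those held 53.1% of the TPM of COL4A5 and 82.7% of that of COL4A6. COL4A6 is known to start at either of 2 places, 1 close to COL4A5 and 1 deeper in its own gene, and 379 and 1415 bases separate them from the COL4A5 start in RefSeq. The start further from COL4A5 supplied 98.9%, 93.3% and 92.3% of the TPM of long coding COL4A6 transcripts. The near start supplied 1.15%, 6.70% and 7.68%, or 5.18% ± 3.52. It rested on 9.9 estimated counts in replicate 1, the library where it was lowest.

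The 2 COL4A6 upstream stretches are shown because they differ in use in these libraries; each is the exon-free part of the 250 bases before the start, minus strand, from RefSeq GRCh38.p14. Capitals mark GGGCGG (the GC box), CCAAT and TATAAA (the TATA box) on either strand, the only letters searched; no 2 of them overlap.
COL4A6 start near COL4A5, chrX:108439498-108439708: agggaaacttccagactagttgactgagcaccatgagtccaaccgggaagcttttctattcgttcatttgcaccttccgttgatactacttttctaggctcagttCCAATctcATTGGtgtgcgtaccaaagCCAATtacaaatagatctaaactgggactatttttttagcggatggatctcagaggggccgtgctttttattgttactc
COL4A6 start further from COL4A5, chrX:108438431-108438672: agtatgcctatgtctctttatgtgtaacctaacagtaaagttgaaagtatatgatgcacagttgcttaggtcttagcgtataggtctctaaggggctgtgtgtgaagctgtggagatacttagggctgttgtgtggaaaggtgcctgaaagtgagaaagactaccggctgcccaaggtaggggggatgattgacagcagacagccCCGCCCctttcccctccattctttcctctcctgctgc
The stretch at the near start held CCAAT 3 times and neither other motif, and 28.9% of the 35116 promoter windows of that length held CCAAT. Of these matches 2 also lie in the 250 bases before the COL4A5 start, which overlap this stretch. The windows were counted over the bases right before their starts, whereas exon bases were left out of the stretches shown. The stretch at the further start held GGGCGG once and neither other motif, and 42.3% of windows of that length held GGGCGG. Among the 59 promoter windows listed for 43 of the 58 genes, 54.2% held GGGCGG within 250 bases before the start, 27.1% CCAAT and 15.3% TATAAA, beside 42.6%, 32% and 10.7% of all windows. These matches describe letters and say nothing about bound factors.

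COL4A5 also differed in a small internal exon pair. Isoforms with 2 extra exons of 9 bases, which lengthen the collagenous domain by further Gly-X-Y repeats, were described from kidney. The exons are shown in the order in which they are transcribed (GENCODE 29, hg38, plus strand, coding in full).
COL4A5 first 9-base exon, chrX:108670228-108670236: gtcctacag
COL4A5 second 9-base exon, chrX:108674745-108674753: gttttcaag
Transcripts with these exons held 43.2%, 43.3% and 26.6% of the TPM of the COL4A5 transcripts that could be classified, and those were 57.3% of the gene's TPM. Replicates 1 and 2 were alike and replicate 3 was lower, so the share, 37.7% ± 9.61, is loose. It includes a retained-intron transcript of 737 bases, at 1.15, 0.87 and 0.684 TPM. The full-length coding transcript with the exons stood at 3.52, 3.59 and 2.11 TPM, and the one without them at 6.15, 5.84 and 7.70 TPM. Between these full-length forms alone the share with the exons was therefore lower.

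Of the 11 fibril-forming chains, 5 were above 1 TPM, 3 below and 3 undecided, with a median of 0.944 TPM. COL2A1, the cartilage collagen, was the highest of them at 25.9, 25.7 and 25.4 TPM. Its coefficient of variation over libraries was 0.974%. COL2A1 pre-mRNA is known to be spliced with exon 2, which codes for a cysteine-rich domain of the amino propeptide (the IIA form of embryonic and precursor cells), or without it (the IIB form of mature chondrocytes). Exon 2 is shown in full since its use tells the forms apart (GENCODE 29, hg38, minus strand, coding throughout).
COL2A1 exon 2, chr12:47999919-48000125: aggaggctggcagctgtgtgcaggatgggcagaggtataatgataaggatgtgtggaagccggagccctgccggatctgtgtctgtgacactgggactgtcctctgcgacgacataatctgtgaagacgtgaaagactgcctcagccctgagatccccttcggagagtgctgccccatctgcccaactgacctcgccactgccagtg
Transcripts with this exon held 96.7%, 94.4% and 94.5% of the TPM of classified COL2A1 transcripts, and the transcript that skips it held 4.78% ± 1.3. Those classified held 85.2% of the gene's TPM. Those with the exon included a non-coding transcript of 760 bases, at 0.924, 0 and 0 TPM. Every library thus carried mostly the exon 2 form. SOX9, a transcription factor that acts on COL2A1 in chondrocytes, was above 1 TPM. Of the cartilage matrix genes on the marker list, ACAN (0.169 ± 0.0306 TPM) and MATN1 (0.472 ± 0.12) were below it and COMP (1.16 ± 0.331) was undecided.

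COL1A1 and COL1A2 encode the chains of type I collagen, which normally joins a pair of α1 chains with a single α2 chain and can also form from α1 chains alone. COL1A1 stood at 18.4, 18.2 and 17.6 TPM. COL1A2 stood at 0.0657, 0.0295 and 0.0432 TPM, on 9.01 estimated counts, and none of it lay in a coding transcript of at least 1000 bases. The COL1A1 values were 281, 618 and 408 times those of COL1A2 in the 3 libraries, a difference of 6.97 ± 0.17 on the log2(TPM + 0.1) scale. In the same libraries COL2A1 was at 1.40, 1.41 and 1.44 times COL1A1, and at 3.25, 3.52 and 3.4 times in coding transcripts of at least 1000 bases.

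The largest part of the COL1A1 TPM was assigned to a transcript that is not the full-length message. COL1A1-211, 549 bases in 4 exons, held 56.2%, 53.8% and 49.7% of the gene's TPM, and the full-length transcript, of 51 exons, held 35.5%, 33.9% and 36.1%. Counted as fragments the order was the reverse: COL1A1-211 had 82.9 of the 1112 estimated counts of the gene, or 7.45%, since TPM divides by length. COL1A1-211 begins 1441 bases downstream of the full-length start. Its first 244 bases lie inside an intron of the full-length transcript, and 157 of these are annotated as coding. Those 157 bases are shown because they are the annotated coding part of what the short transcript has and the full-length message lacks (GENCODE 29, hg38, minus strand).
COL1A1-211 coding bases in an intron of the full-length transcript, chr17:50199948-50200104: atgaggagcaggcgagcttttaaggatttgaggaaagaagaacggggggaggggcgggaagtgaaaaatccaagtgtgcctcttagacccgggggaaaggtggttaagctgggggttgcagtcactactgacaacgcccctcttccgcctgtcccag
In coding transcripts of at least 1000 bases COL1A1 stood at 6.54, 6.18 and 6.36 TPM, still above 1 TPM (adjusted p = 1.82e-08 by limma).

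The remaining fibril-forming genes above 1 TPM were COL27A1, COL5A1 and COL5A2. COL27A1, a chain of cartilage and developing tissues, stood at 9.67, 11.1 and 10.3 TPM, of which 50% lay in coding transcripts of at least 1000 bases. COL5A1 stood at 5.75, 4.81 and 5.49 TPM and COL5A2 at 2.34, 2.18 and 1.92 TPM. These chains of type V collagen, which regulates fibril diameter, kept COL5A1 above COL5A2 by 1.28 ± 0.18 on the log2(TPM + 0.1) scale. The remaining type V chain, COL5A3, was listed at 0, 0 and 0.00698 TPM. COL3A1, the chain of type III collagen in skin and vessels, was undecided at 0.944, 0.816 and 1.005 TPM. COL24A1 was undecided at 0.851, 1.04 and 0.947 TPM, and COL11A2 at 0.854, 0.722 and 0.641 TPM. In coding transcripts of at least 1000 bases COL24A1 (0.294 ± 0.175 TPM) and COL11A2 (0.113 ± 0.0205) were below 1 TPM. COL11A1, which joins COL11A2 and COL2A1 chains in cartilage fibrils, was listed at 0, 0.00817 and 0 TPM, so 1 of the 3 chains of type XI fibrils was abundant and 1 was nearly unseen.

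Beaded filament collagen combined high α1 and α2 chains with a low α3 chain. COL6A1 and COL6A2 lie on chromosome 21 (chr21:45981737-46005050 and chr21:46098097-46132849, both on the plus strand), while COL6A3 lies on chromosome 2. The secreted type VI monomer contains α1 and α2 chains with α3 or, in some tissues, α5 or α6. COL6A1 was the highest collagen gene at 42.6, 39.1 and 40.2 TPM and COL6A2 stood at 18.2, 17.8 and 19.0 TPM. COL6A3 stood at 0.189, 0.150 and 0.117 TPM, below 1 TPM in every library (adjusted p = 0.00156 by limma). COL6A1 was at 225, 261 and 344 times COL6A3 in replicates 1, 2 and 3, and at 2.33, 2.19 and 2.12 times COL6A2. In coding transcripts of at least 1000 bases, which held 34.2% of the COL6A3 TPM, the multiples of COL6A3 were 1000, 533 and 787. COL6A5 (0.0515 ± 0.0128 TPM) and COL6A6 (0.0883 ± 0.05) were below 1 TPM as well, so no gene for an α3, α5 or α6 chain was above it. COL6A2 is known for alternative last exons that change the carboxyl end of its chain. The most downstream of the 3 last exons held 78.7%, 77.9% and 78.0% of the TPM of classified transcripts, the middle one 15.2% ± 1.19 and the most upstream one 6.59% ± 0.823. Those classified held 92.2% of the COL6A2 TPM.

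COL18A1, the multiplexin whose carboxyl end is released as endostatin, was the second highest collagen gene at 30.2, 29.2 and 30.5 TPM. Its range overlapped that of COL4A2 and lay below that of COL6A1. COL18A1 has an upstream start that gives the shortest chain, found in vascular and epithelial basement membranes, and a downstream start that gives the longer chains of liver. The upstream start supplied 99.6%, 99.7% and 99.4% of the TPM of the coding transcripts classified by start. Those classified held 91.0% of the gene's TPM. A coding transcript of 3386 bases, at 0.994, 0.734 and 1.26 TPM, was left unclassified because of its shorter coding sequence. Of the exonic bases of COL18A1, 16.4% overlap SLC19A1 on the other strand, which stood at 59.3 ± 0.706 TPM. The libraries were made with a directional kit, but the strand setting of the quantification is not given in the sources used here, so the part of SLC19A1 reads in the COL18A1 value was not tested. COL15A1, the other multiplexin, was below 1 TPM at 0.577, 0.829 and 0.482 TPM (adjusted p = 0.0389 by limma). That call was lost without replicate 1 or 3, with adjusted p = 0.138 and 0.127 by limma. A retained-intron transcript of 771 bases held 93.4% ± 6.27 of the COL15A1 TPM, and the gene rested on 7.64 estimated counts. In coding transcripts of at least 1000 bases COL15A1 stood at 0, 0.0828 and 0.0208 TPM, also below 1 TPM (adjusted p = 0.000797 by limma).

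Transmembrane collagens are made as single-pass proteins with the helix outside the cell. COL25A1, known from neurons and from amyloid plaques, stood at 9.30, 7.47 and 5.69 TPM. It spread more than most collagens at this level, with a coefficient of variation of 24.1%. In coding transcripts of at least 1000 bases the values were 6.47, 5.82 and 5.69 TPM, and the rest was mainly a coding transcript of 316 bases at 2.55, 0.996 and 0 TPM. COL13A1, a component of the neuromuscular junction, stood at 3.48, 3.69 and 4.77 TPM, with 56.0% in such long transcripts. COL23A1 was undecided at 0.776, 0.685 and 0.865 TPM (adjusted p = 0.0867 by limma). All of its TPM lay in coding transcripts of at least 1000 bases, and the fit to those alone called the same values below 1 TPM (adjusted p = 0.028 by limma). COL17A1, the hemidesmosome collagen of skin, was listed at 0. COL26A1, grouped with other collagens, stood at 3.78, 2.76 and 3.43 TPM.

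Fibril-associated and hexagonal collagens were mostly low, while the only anchoring gene, COL7A1, was above 1 TPM over all its transcripts. Of the 10 fibril-associated genes 2 were above 1 TPM, 5 below, 2 undecided and COL22A1 was listed at 0, with a median of 0.384 TPM. COL14A1, which binds the surface of fibrils, stood at 1.63, 1.56 and 1.75 TPM, with 98.4% in coding transcripts of at least 1000 bases. COL9A3, a chain of cartilage type IX collagen, stood at 5.81, 4.80 and 5.59 TPM, and 1.96% of this lay in such transcripts. Its partners were COL9A2, undecided at 0.715, 1.45 and 0.871 TPM, and COL9A1, below 1 TPM at 0.138 ± 0.0176. COL19A1 was undecided at 1.03, 0.835 and 1.29 TPM, and below 1 TPM in coding transcripts of at least 1000 bases (0.312 ± 0.0445). COL7A1, the anchoring fibril chain that fastens epidermis to dermis, stood at 4.45, 5.07 and 5.77 TPM. COL8A1, a network chain of vessels and the cornea, stood at 4.01, 4.0 and 6.38 TPM, with replicate 3 the highest.

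For 3 genes called above 1 TPM, COL8A1, COL7A1 and COL9A3, the call rested on transcripts that are not full-length messages. For COL8A1 a non-coding transcript of 832 bases held 92.5% ± 3.02 of the TPM, and it shared 0 bases with the annotated coding sequence. Without such transcripts COL8A1 stood at 0.0505 ± 0.0477 TPM, below 1 TPM (adjusted p = 0.000402 by limma). For COL7A1 the leading transcript retained an intron and held 35.7% ± 3.64. The long coding COL7A1 transcripts stood at 0.651, 0.707 and 0.749 TPM, below 1 TPM (adjusted p = 0.00696 by limma). For COL9A3 they stood at 0.201, 0 and 0.117 TPM, also below 1 TPM (adjusted p = 0.00696 by limma), and the gene rested on 95 estimated counts in all. With coding transcripts of at least 1000 bases alone, 16 collagens were above 1 TPM, 21 below, 1 undecided (COL3A1) and 6 at 0, when 70.2% of the 15559 genes tested were above and 26.4% below.

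**Figure D2:**
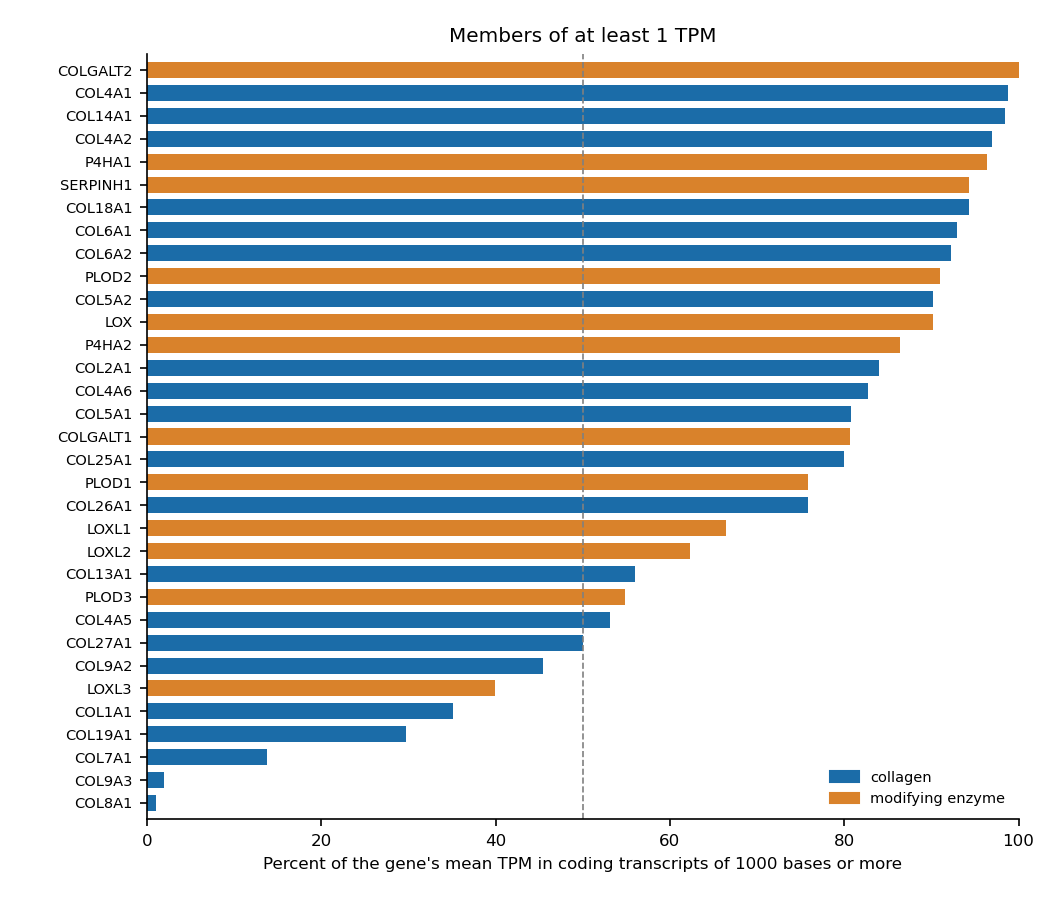
Percent of each gene's mean TPM that lay in coding transcripts of 1000 bases or more, for the 33 genes of at least 1 TPM. Blue bars are collagens, orange bars are modifying genes and the dashed line is 50%. COL8A1, COL9A3, COL7A1, COL19A1, COL1A1 and COL9A2 among collagens and LOXL3 among modifying genes lie below the line.

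Over the 21 collagens of at least 1 TPM, the median share of TPM in coding transcripts of at least 1000 bases was 80.0%, and over the 12 modifying genes 83.5%. The median over 12578 protein-coding genes of at least 1 TPM was 69.7%, and 30.5% of these had under 50% in such transcripts. Under 50% was seen for 6 collagens and for 1 modifying gene, LOXL3. The most abundant transcript was the same in all libraries for 26 of the 33 genes and differed for 7: COL9A2, COL9A3, COL13A1, COL25A1, COL26A1, P4HA1 and LOXL3. It was coding and at least 1000 bases long for 27.

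The 16 collagens below 1 TPM ran from COL5A3 (0.00233 ± 0.00403 TPM) to COL15A1 (0.629 ± 0.179). Besides those already given they included COL12A1 (0.30 ± 0.0505 TPM) and COL21A1 (0.444 ± 0.0909), which associate with fibrils, COL16A1 (0.324 ± 0.122), COL20A1 (0.0108 ± 0.0187), COL8A2 (0.0304 ± 0.0263) and COL28A1 (0.117 ± 0.062). The 18 genes below 1 TPM had at most 92 estimated counts each in replicate 1. COL10A1, the chain of hypertrophic cartilage, COL22A1 and COL17A1 were listed at 0 in all libraries and had no estimated counts.

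Of the 14 modifying genes 85.7% were above 1 TPM, beside 70.7% of the protein-coding genes tested. Their median of 12.6 TPM stood beside 10.8 TPM for the protein-coding genes tested. SERPINH1, the chaperone, stood at 47.4, 48.5 and 49.2 TPM, 91.5% ± 1.85 of it in 1 coding transcript. Of the 31-base words in its transcripts 5.31% also occur in other genes, most often in the pseudogene SERPINH1P1, so a part of its reads could be assigned to either. COLGALT1, which adds galactose to hydroxylysine, was the highest of the 14 at 67.1, 69.2 and 74.2 TPM. COLGALT2, its paralog, stood at 4.51, 4.56 and 4.03 TPM, lower by 3.98 ± 0.17 on the log2(TPM + 0.1) scale.

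**Figure D3:**
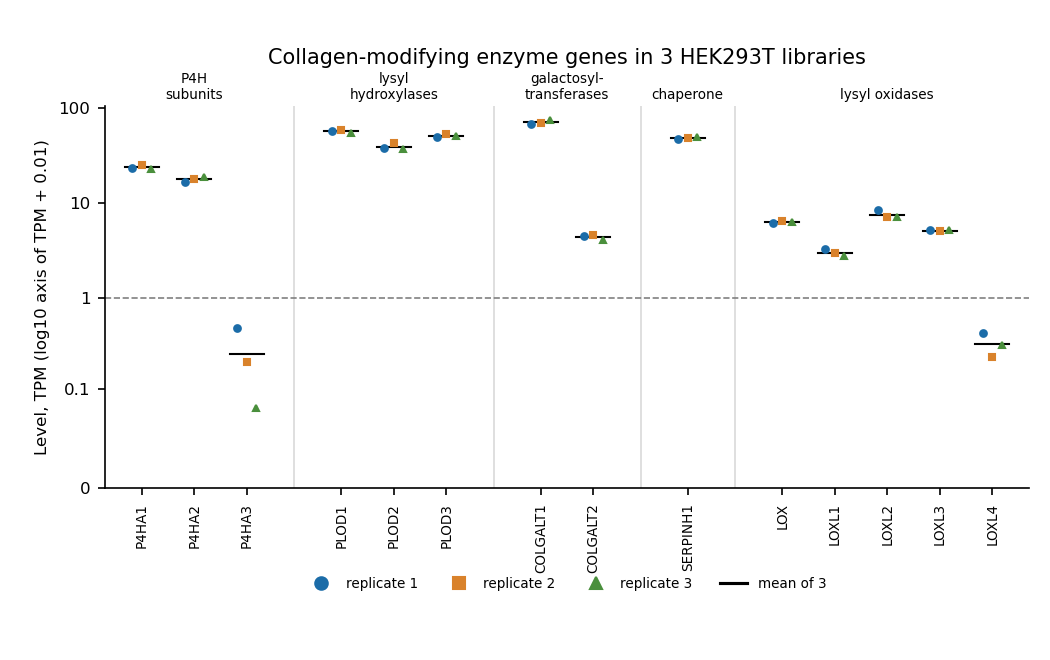
Level of the 14 modifying genes in the 3 libraries, grouped by activity. The vertical axis is TPM on a log10 axis of TPM + 0.01, points are libraries, black bars are means and the dashed line is 1 TPM. P4HA3 and LOXL4 lie below 1 TPM in every library and the other 12 above it.

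Prolyl 4-hydroxylase makes the hydroxyproline that stabilises the helix, as a tetramer of P4HA catalytic subunits with P4HB (protein disulfide isomerase). P4HA1 stood at 23.3, 25.0 and 22.7 TPM and P4HA2 at 16.5, 17.8 and 18.7 TPM, with all P4HA1 values above those of P4HA2. The difference was 0.42 ± 0.12 on the log2(TPM + 0.1) scale and took the other sign, at -0.30, when only the most abundant transcript of each gene was compared. P4HA3 was below 1 TPM at 0.477, 0.204 and 0.0606 TPM (adjusted p = 0.0196 by limma), a call that was lost without replicate 2 (adjusted p = 0.0924 by limma). P4HB stood at 455 ± 11.1 TPM, at 20.1, 18.1 and 19.7 times P4HA1. P4HB also serves general protein folding.

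P4HA1 transcripts use 1 of 2 alternative exons of 71 bases each. They are shown with the bases they share in capitals (GENCODE 29, hg38, minus strand, coding throughout).
P4HA1 upstream exon, chr10:73044981-73045051: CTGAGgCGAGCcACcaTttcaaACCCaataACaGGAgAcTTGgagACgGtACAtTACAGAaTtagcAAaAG
P4HA1 downstream exon, chr10:73043887-73043957: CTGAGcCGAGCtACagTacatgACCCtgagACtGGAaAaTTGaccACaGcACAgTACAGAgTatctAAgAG
The exons carry the same base at 43 of 71 positions, or 60.6%. Transcripts with the downstream exon held 66.9%, 71% and 67.0% of the TPM of classified transcripts and those with the upstream exon 31.7% ± 2.36. P4HA2 has a like choice between exons of 60 and 66 bases, and the upstream one held 81.4%, 77.1% and 79.6%. The transcripts classified held 96.4% of the TPM of P4HA1 and 84.8% of that of P4HA2.

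Lysyl hydroxylases make the hydroxylysine that carries sugars and forms the stronger cross-links. PLOD1, which acts on the helix, stood at 57.4, 58.0 and 54.0 TPM. PLOD3, which also transfers sugars, stood at 49.1, 53.3 and 50.2 TPM. PLOD2, known for hydroxylating the telopeptides at the ends of the helix, stood at 37.4, 42.9 and 36.5 TPM. PLOD1 exceeded PLOD3 by 0.15 ± 0.07 on the log2(TPM + 0.1) scale, and by 0.62 ± 0.01 in coding transcripts of at least 1000 bases. PLOD3 exceeded PLOD2 by 0.39 ± 0.08, but in coding transcripts of at least 1000 bases it was below PLOD2 in every library, by -0.34 ± 0.06, because such transcripts held 54.9% of the PLOD3 TPM and 91.0% of the PLOD2 TPM. ZNHIT1, which overlaps 7.56% of the exonic bases of PLOD3 on the other strand, stood at 73.1 ± 0.965 TPM, and its part in the PLOD3 value was not tested.

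The telopeptide activity of PLOD2 is tied to the longer of its forms, which contains an exon of 63 bases. It is shown because its use separates the forms (GENCODE 29, hg38, minus strand, coding throughout).
PLOD2 63-base exon, chr3:146077862-146077924: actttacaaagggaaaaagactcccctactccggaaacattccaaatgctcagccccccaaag
Transcripts with this exon held 35.2%, 39.8% and 36.8% of the TPM of classified PLOD2 transcripts, or 12.4, 14.2 and 13.1 TPM. The form that skips it stood at 22.8, 21.5 and 22.4 TPM and was the more abundant in every library. The transcripts classified held 91.0% of the PLOD2 TPM.

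**Figure D4:**
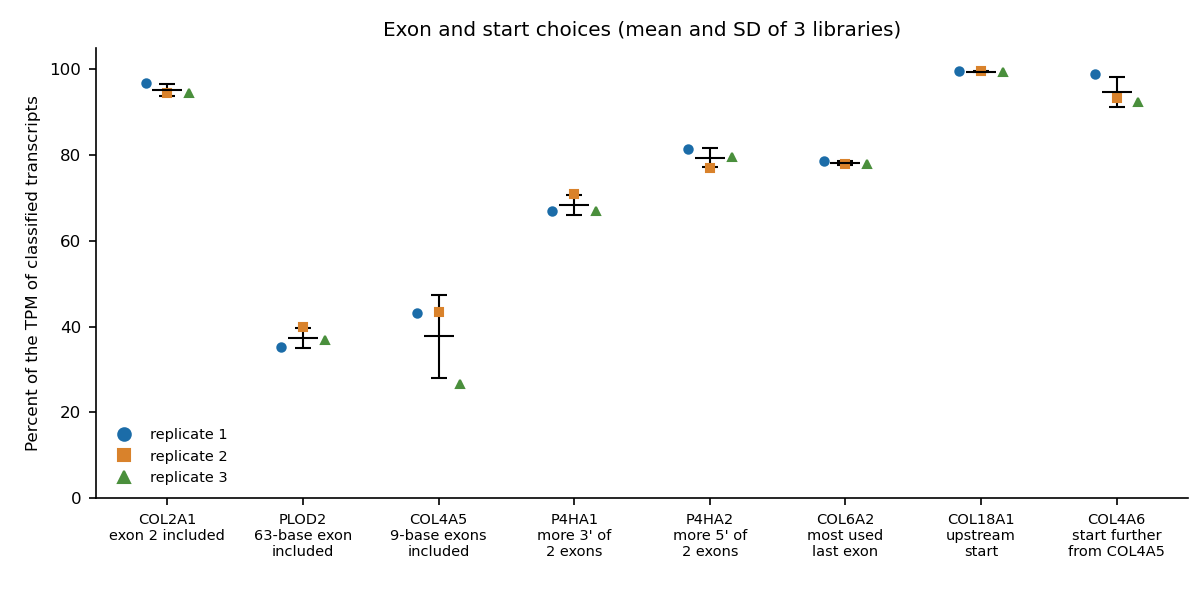
Percent of the TPM of classified transcripts that used the named exon or start, for 8 genes. Points are the 3 libraries, and bars are the mean with the SD over libraries. COL2A1, COL18A1 and COL4A6 lie above 90% in every library, PLOD2 lies between 35.2% and 39.8%, and replicate 3 stands apart for COL4A5.

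Of the 5 lysyl oxidases, copper enzymes that oxidise lysines to start cross-links, 4 were above 1 TPM. LOX stood at 6.06, 6.42 and 6.29 TPM, and LOXL2, known for cross-linking type IV collagen, at 8.34, 7.08 and 7.02 TPM. LOXL2 exceeded LOX by 0.25 ± 0.18 on the log2(TPM + 0.1) scale and was below it by -0.27 ± 0.06 in coding transcripts of at least 1000 bases. LOXL3 stood at 5.19, 5.0 and 5.12 TPM, 39.9% of it in such transcripts. Of its exonic bases 19.3% overlap HTRA2 (50.2 ± 2.53 TPM) or DOK1 (5.81 ± 0.54) on the other strand, and their part in the LOXL3 value was not tested. LOXL1, needed for elastic fibres, stood at 3.23, 2.95 and 2.74 TPM. LOXL4 was below 1 TPM at 0.416, 0.229 and 0.315 TPM. Antisense genes overlap 9.21% of the exonic bases of LOXL1 and 6.45% of those of P4HA2, and without a stated strand setting reads from such partners cannot be told apart.

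Each of the 27 chain and paralog pairs compared had the same gene higher in all 3 libraries. How often other pairs of genes in the table keep 1 order was not counted, so this is not shown to be particular to these pairs. The exact sign-flip test over 3 libraries gives p = 0.25 for each pair, the smallest it allows, so the pairs are described by their differences and spreads. With the pseudocount of 0.1 the largest differences were COL11A1 below COL2A1 by -7.97 ± 0.07, COL6A1 above COL6A3 by 7.35 ± 0.17 and COL1A1 above COL1A2 by 6.97 ± 0.17. The first of these was set mainly by the pseudocount, since COL11A1 was at 0 in 2 libraries. With a pseudocount of 0.01 it was -11.04, COL5A1 exceeded COL5A3 by 8.81 and COL1A1 exceeded COL1A2 by 8.38, ahead of 7.995 for COL6A1 over COL6A3. With coding transcripts of at least 1000 bases 24 pairs had a single sign in all libraries; for PLOD3 with PLOD2 and for LOXL2 with LOX it was the opposite sign. COL8A1 with COL8A2, COL9A3 with COL9A1 and COL9A2 with COL9A3 had no single sign there, and the mean of COL9A2 minus COL9A3 turned to 1.46 ± 1.33 from -2.36 ± 0.62.

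**Figure D5:**
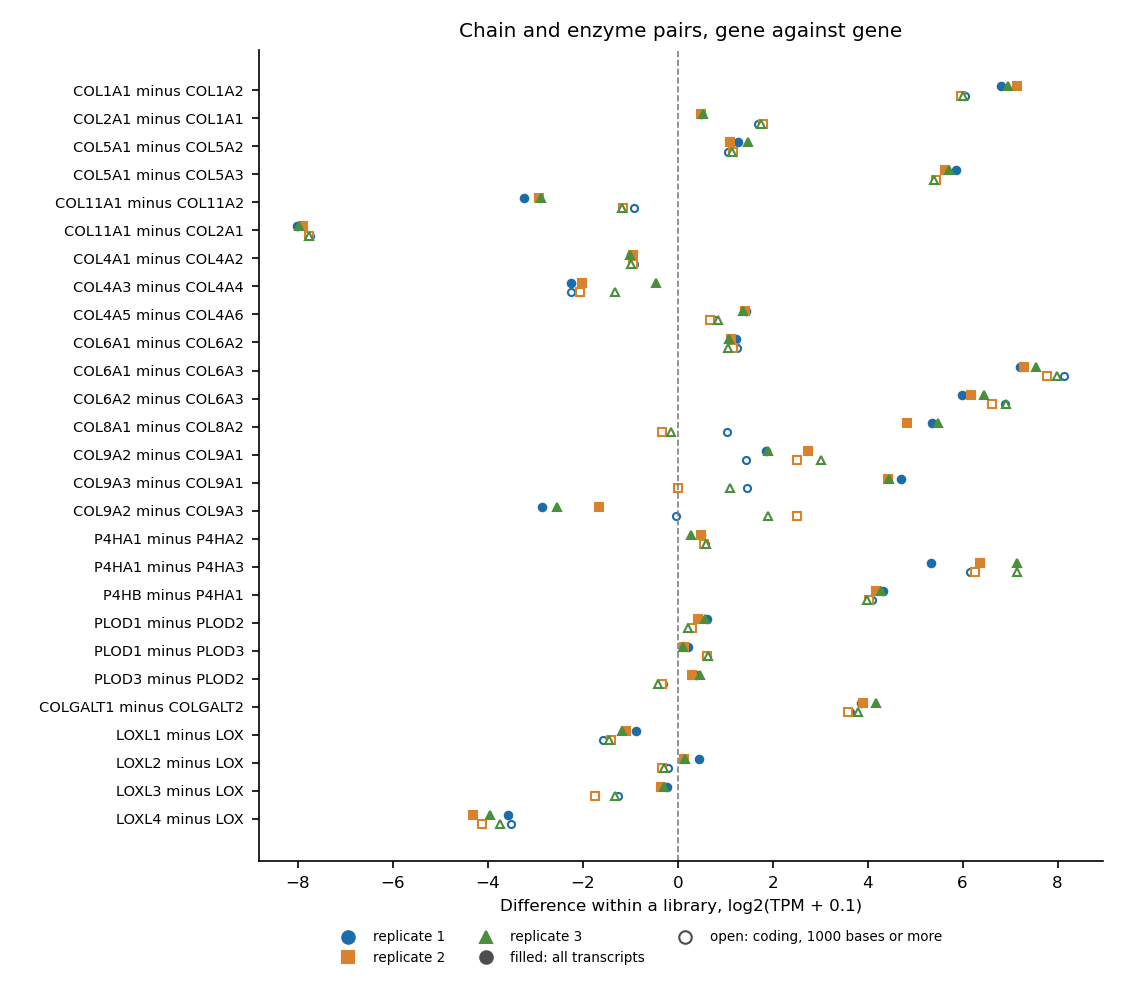
Difference between the 2 genes of each pair within a library, in log2(TPM + 0.1), for 27 pairs. Filled points use all transcripts and open points only coding transcripts of 1000 bases or more, with 1 point for each library. Filled points of a pair lie on 1 side of 0 throughout, and the open points of PLOD3 minus PLOD2 and LOXL2 minus LOX lie on the other side. The open points of COL9A2 minus COL9A3 and COL8A1 minus COL8A2 lie on both sides, and 1 open point of COL9A3 minus COL9A1 lies at 0.

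Genes that act with these proteins were read from 4 lists of 42 genes in all, of which 32 were above 1 TPM, 6 below and 4 undecided, with a median of 14 TPM. These were 76.2% above and 14.3% below, beside 70.7% and 23.7% of the protein-coding genes tested and 58.5% and 33.9% of all genes tested. In coding transcripts of at least 1000 bases 29 were above, 12 below and 1 undecided. The share above was then 69.0%, near the 70.2% of all genes tested in that setting. There LUM (0.524 ± 0.069 TPM) and the receptor DDR2 (0.691 ± 0.0553) went from above to below, and PCOLCE (0.739 ± 0.336) from above to undecided. Of 10 genes of folding and prolyl 3-hydroxylation in the endoplasmic reticulum, 9 were above 1 TPM and 1 undecided, with a median of 60.7 TPM. P4HB was the highest, followed by PPIB, the cyclophilin of the 3-hydroxylation complex (443 ± 4.15 TPM), FKBP10, a collagen chaperone (226 ± 5.13), and CRTAP, a helper subunit of that complex (137 ± 1.62). The lowest were FKBP14 (19.7 ± 1.02 TPM) and the undecided prolyl 3-hydroxylase P3H2 (1.53 ± 0.823). All 8 genes of procollagen export were above 1 TPM, with a median of 65.1 TPM. They were led by the COPII coat genes SEC13 at 156 ± 4.8 TPM and SEC31A at 116 ± 3.51, the procollagen receptor MIA3 (TANGO1) at 88.4 ± 4.86 and SEC23A at 80.0 ± 1.43. SEC24D (17.9 ± 0.526 TPM) and MIA2 (11.3 ± 0.349) were the lowest of these.

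Of 14 genes of propeptide removal and extracellular assembly, 9 were above 1 TPM, 3 below and 2 undecided, with a median of 5.35 TPM. The highest were SPARC, a collagen-binding matrix protein (32.5 ± 1.8 TPM), PCOLCE2 (18.5 ± 1.54) and PCOLCE (14.5 ± 1.58), which enhance removal of the carboxyl propeptide, and fibronectin FN1 (14.9 ± 1.73). FMOD (0.0837 ± 0.145 TPM) and the propeptidase ADAMTS14 (0.0524 ± 0.0173) were the lowest. For SPARC 9.03% and for PCOLCE 5.09% of the TPM lay in coding transcripts of at least 1000 bases. Of 10 collagen receptor genes 6 were above 1 TPM, 3 below and 1 undecided, with a median of 2.01 TPM. They were led by the integrin subunit ITGB1 (62.6 ± 0.651 TPM), the receptor tyrosine kinase DDR1 (13.4 ± 0.88), the endocytic receptor MRC2 (11.5 ± 2.02) and ITGA2 (3.6 ± 0.223). The platelet receptor GP6 (0.167 ± 0.011 TPM) and ITGA11 (0.163 ± 0.0646) were the lowest.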

How the data were processed

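Libraries of 3 HEK293T samples were made by oligo-dT capture with a directional kit (the labels' protocols). The submitters' processing notes name kallisto and hg38; its version, options, strand setting and transcript set are not given in the sources used here. For 185299 transcripts the authors deposited TPM, scaled within each library. The authors also deposited estimated counts for 1 unnamed library, under kallisto's column name per the file header. Converted to TPM, these matched replicate 1 within a relative difference of 1.08e-05 for transcripts above 0.1 TPM.

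TPM was summed by gene symbol. Levels were tested against 1 TPM with limma 3.58.1 in R 4.3.3 (log2(TPM + 0.01), mean-variance trend, p adjusted by Benjamini and Hochberg across the 21990 genes with any value over 0). No count model was fitted, since counts stood for 1 library only. Pairs were compared as log2(TPM + 0.1) within libraries. Of 523 transcripts of the 58 genes, 489 matched GENCODE 29 by identifier without version and held 99.9% of their TPM; types, exons and sequences come from that release, which may not be the authors'. Of the 58 genes, 43 had promoter entries in RefSeq. The test of levels was tried on simulated data, which did not model errors in assigning reads to transcripts.

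Members, lists and pairs were chosen with earlier results of these data known. Every gene of the 58 is accounted for; of each further list the 4 highest and 2 lowest were named, and of each marker list the highest, the lowest and those at 0. ACAN, MATN1, COMP and DDR2 fall outside that rule and were named after their values were seen. The exon and start choices, and the setting with coding transcripts of at least 1000 bases, were chosen after their values were seen. Other pseudocounts, levels, scalings, filters and left-out libraries were tried.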

Additional observations from a re-analysis of the deposited data

How the results depend on the processing

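No paired analysis was possible because all 3 libraries form 1 group. Of the 55 genes tested, 44 kept their call wherever they were tested under the 11 alternatives that held the level at 1 TPM, and TMM and median-of-ratios factors changed no call of the 55. The cause of the changes below was not tested beyond what each setting removes. With a mean TPM of at least 0.1 required, 11 genes were below 1 TPM, 9 of them collagens, since fewer low genes were tested. Modifying genes below the level numbered 0 at 0.5 TPM and 1 with no variance trend. Leaving out 1 library at a time gave 31 genes above in each fit and 14 to 16 below. It gave 12 to 14 collagens below, 1 to 2 modifying genes below (1 without replicate 2), 31 to 32 partner genes above and a basement membrane share of 26.7 to 27.0%. That share was 27.3% over collagens of at least 1 TPM and 29.8% in coding transcripts of at least 1000 bases, a setting chosen after seeing the data. Genes near the level changed side with it on the log2 scale. Against 0.5 TPM the differences were COL3A1 0.86, COL11A2 0.54, COL24A1 0.90, COL4A4 0.052, COL9A2 0.94, COL23A1 0.62 and COL15A1 0.29, and against 2 TPM they were COL14A1 -0.28 and COL19A1 -0.94. Rescaling without mitochondrially encoded genes gave COL24A1 0.012 and COL9A2 0.049, and ended the calls of COL4A4 and COL15A1 (adjusted p = 0.0662 and 0.06 by limma), which left 16 genes below, 14 of them collagens. COL9A2 ran from -0.34 to 0.17 and COL19A1 from -0.10 to 0.20 when 1 library was left out; COL9A2 was at 0.03 without replicate 3. Coding transcripts of at least 1000 bases gave COL7A1 -0.51, COL8A1 -4.36, COL9A3 -3.97 and COL19A1 -1.66. In that setting the pair differences were 1.46 for COL9A2 minus COL9A3, -0.34 for PLOD3 minus PLOD2 and -0.27 for LOXL2 minus LOX. The most abundant transcript alone gave -0.30 for P4HA1 minus P4HA2. COL4A4, COL15A1 and P4HA3 lost their calls with no trend, at adjusted p = 0.088, 0.0503 and 0.054 by limma. COL11A2 and COL23A1 gained a call below there (0.035 and 0.034) and with a pseudocount of 1 (0.0267 and 0.037). Genes below 1 TPM rested on 0 to 92 estimated counts, which limits what their levels can show.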
